A study of Sus scrofa with 9 samples.

Results

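Amino acid transporters of 7 solute carrier families (SLC1, SLC3, SLC6, SLC7, SLC36, SLC38 and SLC43) were examined in a back muscle, the longissimus dorsi, of pigs fed different amounts of lysine. A probe set, the unit of measurement on the array, was taken when it had a single gene symbol in the platform annotation and that symbol belonged to one of these families. This gave 37 probe sets for 35 genes, out of 12362 genes named by 13323 probe sets with 1 symbol and 27558 probe sets in all. For each gene the probe set with the highest mean over the 9 arrays was used. The lysine carriers SLC7A1, SLC7A2 and SLC7A7 were among them. SLC7A6, SLC7A5, SLC3A2, SLC7A11 and the SLC43 family were not analysed here, because no probe set had their symbol alone. The same held for SLC7A3, SLC7A9, SLC7A13, SLC38A4, SLC38A5, SLC38A8 and SLC38A10. Of 19 SLC6 genes looked for 9 were measured, so statements on a family cover its measured genes only.

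The animals were 9 male finishing pigs of about 95 kg starting weight, killed after 5 weeks on diets labelled as lysine deficiency, lysine adequate and lysine excess, with 3 pigs per diet and 1 array per pig. The labels give diet lysine by these names and not as a concentration, and no breed or age. RNA came from whole muscle between the 10th and 12th ribs, so fewer cells of a type and less RNA per cell cannot be told apart. The values are the authors' processed values, taken as log2 because they run from 3.10 to 14.30, and every fold change rests on that base.

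Lysine carries a positive charge and cannot diffuse through the plasma membrane. It enters cells mainly through the cationic carriers of the SLC7 family, which also carry arginine and ornithine. Some SLC7 proteins work alone, while others must pair with a heavy chain of the SLC3 family and exchange one amino acid for another. Neutral amino acids are concentrated in muscle by sodium-coupled carriers of the SLC38 and SLC1 families, and SLC36 proteins move small amino acids with protons. SLC6 holds both carriers of amino acids and the transporters of neurotransmitters. In human and rodent cells short of amino acids, several of these genes are transcribed more strongly through the transcription factor ATF4. Roles below are those known from human and rodent proteins.

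The arrays of 8 pigs correlated with each other at 0.977 to 0.992, whereas the array of excess pig 11 correlated with the others at 0.904 to 0.956. Its values had an SD of 1.82, and those of the other arrays 1.93 to 1.99. All 5 measured muscle markers of a list of 12 (ACTA1, MYH1, MYH7, TNNC2 and MYL1) had means of 12.56 to 13.60, far above the median of all probe sets, 5.07. Of the transporters, 14 had a mean above that median and 21 had a mean at or below it. Signal over background was not tested, so for those 21 genes a difference between diets can be understated. Probe sets differ in how well they bind, so their levels are not compared with each other.

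No transporter differed between diets at a limma adjusted p below 0.05. This held for 0 of 35 genes in each of the 3 comparisons, and 0% of all probe sets were called in each. The F test of limma for any diet called 0% as well. By that test 0 of 35 transporters fell under an unadjusted threshold of 0.05, against 2.54% of all probe sets, and the gene nearest to it was SLC1A5 (limma adjusted p = 0.933). In deficient against adequate pigs 0 of 35 genes reached an unadjusted p below 0.05, as 1.85% of all probe sets did. There was 1 of 35 in excess against adequate pigs (3.56% of all probe sets), the lysosomal carrier SLC38A7, and 1 of 35 in deficient against excess pigs (4.08% of all probe sets), the glutamine carrier SLC1A5. Without excess pig 11 these 3 counts were 1 (SLC38A7), 0 and 0. The 3 pigs of one diet lay wholly beyond the 3 of the other for 0, 0 and 1 of the 35 genes, against 6.84%, 7.03% and 6.47% of all probe sets.

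The precision differed widely among the genes. The half-width of the 95% interval of a log2 difference was 0.37 in the median gene, 0.17 for the betaine carrier SLC6A12 and 1.17 for SLC38A11. In deficient against adequate pigs the interval lay within a 2-fold change in either direction for 28 of 35 genes, and within 1.41-fold for 20. The 7 genes whose interval reached beyond 2-fold were SLC1A4, SLC1A5, SLC38A2, SLC38A3, SLC38A9, SLC38A11 and SLC7A8. All of them but SLC38A11 had means above the median of all probe sets. The 21 genes at or below that median, where a difference can be understated, thus mostly had intervals within 2-fold. Each interval uses 1 spread for a gene over all 3 diets, so the excess pigs enter these widths too. The SDs in deficient, adequate and excess pigs were 0.33, 0.18 and 1.14 for SLC38A11, and 0.33, 0.38 and 0.91 for SLC1A4. The excess SD was also the largest for SLC38A3 and SLC38A9, but not for SLC1A5, SLC38A2 and SLC7A8. In excess against adequate pigs 31 of 35 intervals, and in deficient against excess pigs 30 of 35, lay within 2-fold. The difference was smaller than its own standard error (SE) for 29, 23 and 27 of the 35 genes.

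**Figure D1:**
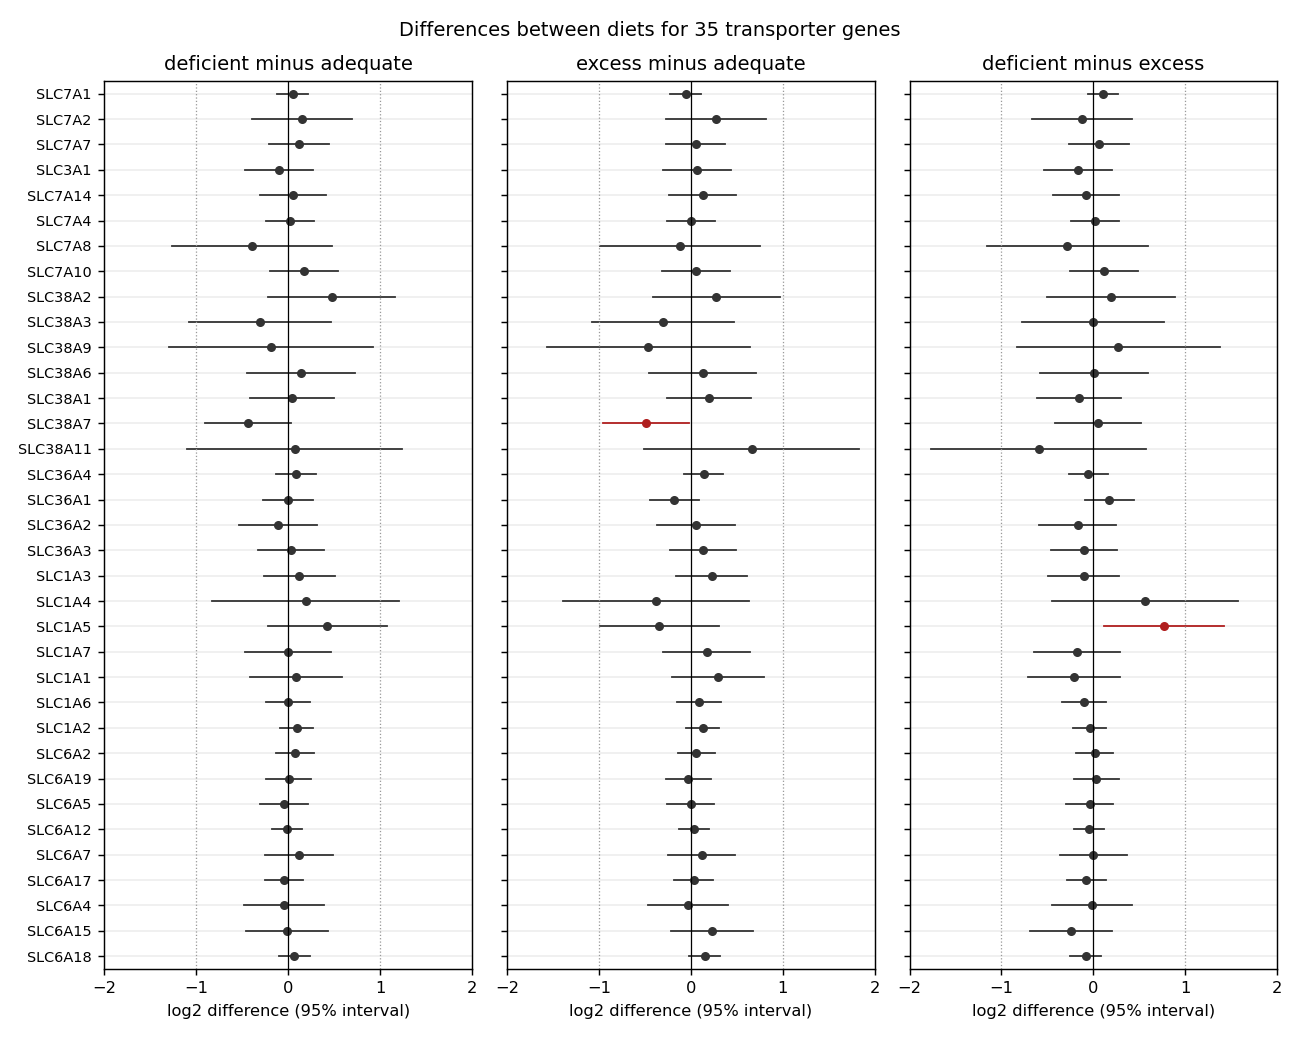
Log2 difference between diets for each of the 35 transporter genes (points) with its 95% interval from limma (lines), in deficient minus adequate, excess minus adequate and deficient minus excess pigs (n = 3 per diet); dotted lines mark a 2-fold change. Red marks the 2 values at an unadjusted p below 0.05, SLC38A7 at -0.49 and SLC1A5 at 0.77, and all other intervals include 0.

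Among the cationic carriers, SLC7A1, a widely expressed carrier of lysine and arginine, varied least. Its log2 values were 4.71, 4.63 and 4.49 in deficient pigs 1, 2 and 3, 4.57, 4.56 and 4.56 in adequate pigs 5, 6 and 7, and 4.50, 4.45 and 4.56 in excess pigs 9, 10 and 11. All 9 pigs lay within 0.26 of each other, and the diets overlapped. Deficient minus adequate was 0.05 ± 0.07 (SE, n = 3 per diet), with a 95% interval from -0.12 to 0.22, so this probe set showed no change beyond about that size in either direction. Excess minus adequate was -0.06 (95% interval -0.22 to 0.11) and deficient minus excess 0.10 (-0.06 to 0.27). The mean of SLC7A1, 4.56, was under the median probe set, where a difference can be understated. These intervals therefore limit the change in the values of this probe set and not in the transcript.

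SLC7A2, the cationic carrier with a low-affinity form known from liver and skeletal muscle, had a mean above the median of all probe sets. It had 10.10, 10.09 and 10.41 in the deficient pigs, 9.89, 10.56 and 9.70 in the adequate pigs and 10.46, 10.49 and 10.02 in the excess pigs. The adequate pigs held both the highest and the lowest value. Deficient minus adequate was 0.15 ± 0.24 (limma adjusted p = 1, 95% interval -0.40 to 0.69). Excess minus adequate was 0.27 ± 0.24 (adjusted p = 0.757 in limma, 95% interval -0.28 to 0.82), and 0.53 without adequate pig 6. Deficient minus excess was -0.12, with a 95% interval from -0.67 to 0.42.

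SLC7A7 exports cationic amino acids in exchange for neutral ones, in a pair with a heavy chain. Its values were 5.08, 4.83 and 4.83 in the deficient pigs, 4.95, 4.77 and 4.68 in the adequate pigs and 4.82, 4.63 and 5.10 in the excess pigs, overlapping in every comparison. The differences were 0.11 ± 0.14 for deficient minus adequate, 0.05 ± 0.14 for excess minus adequate and 0.06 ± 0.14 for deficient minus excess. The sign of excess minus adequate turned without excess pig 11 (-0.07).

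The remaining genes of the cationic group were SLC3A1, the heavy chain of the renal carrier of cystine and dibasic amino acids, SLC7A4, a relative with no established substrate, and SLC7A14, a relative found in lysosomes. Their means, 4.69, 4.19 and 4.40, were under the median probe set. Deficient minus adequate ranged from -0.10 to 0.15 over the 6 genes of the group, excess minus adequate from -0.06 to 0.27 and deficient minus excess from -0.16 to 0.10. In each comparison 0 of the 6 genes reached an unadjusted p below 0.05. The shares of all probe sets were 1.85%, 3.56% and 4.08%, in the same order of comparisons.

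**Figure D2:**
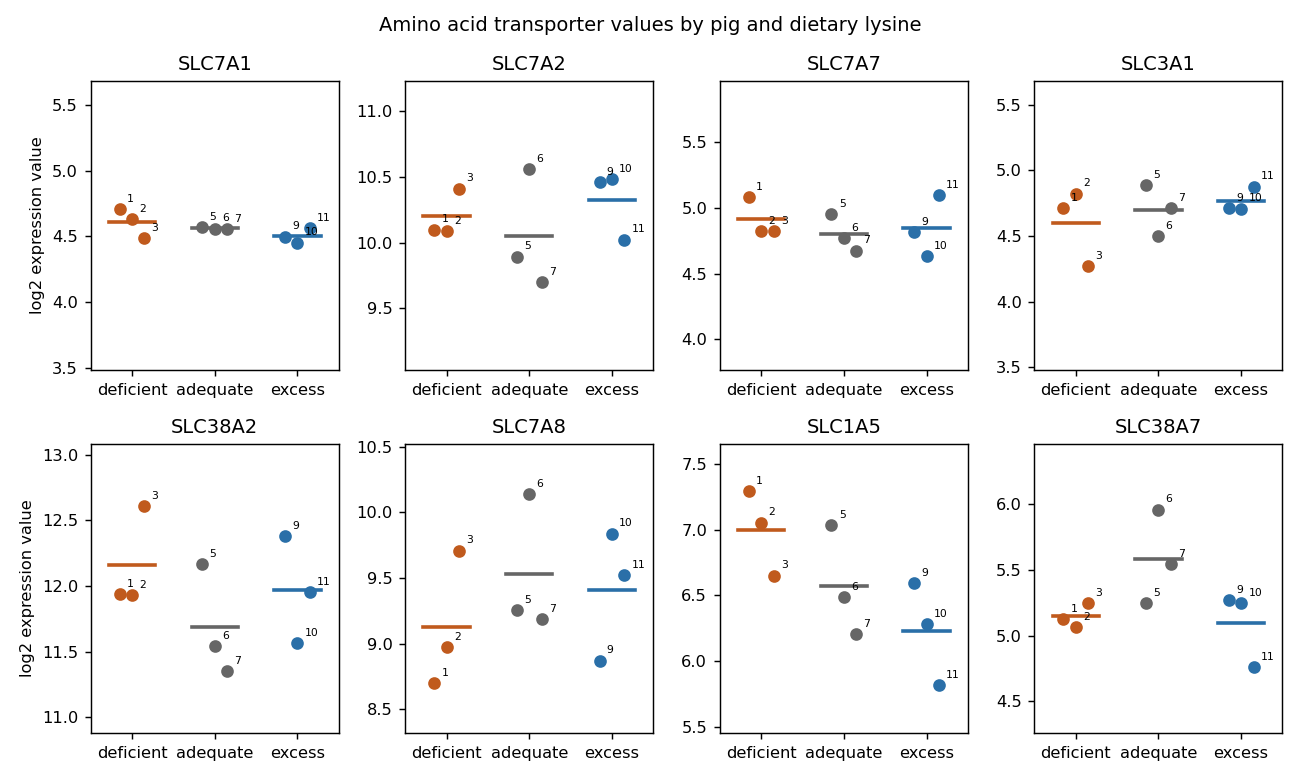
Log2 expression values of 8 transporter genes in each pig (points, labelled with the pig number) by dietary lysine from deficient to excess, with the mean of each diet as a bar; every panel spans 2.2 log2 units. SLC7A1 stayed between 4.45 and 4.71, SLC7A2 between 9.70 and 10.56, and of these genes SLC1A5 alone had deficient pigs (6.65 to 7.29) above all excess pigs (5.81 to 6.59).

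Of the neutral exchangers of the SLC7 family, SLC7A8, which pairs with a heavy chain and moves large and small neutral amino acids, had 8.70, 8.98 and 9.71 in the deficient pigs, 9.25, 10.14 and 9.19 in the adequate pigs and 8.87, 9.84 and 9.52 in the excess pigs. The pigs of each diet spread more widely than the diet means did. The SDs within a diet were 0.52, 0.53 and 0.49, and the diet means spanned 0.40. Deficient minus adequate was -0.40 ± 0.38 (adjusted p = 1 in limma, 95% interval -1.27 to 0.47) and -0.09 without adequate pig 6. Excess minus adequate was -0.12 ± 0.38. SLC7A10, an exchanger of small neutral amino acids that is also abundant in adipocytes, had 4.81, 4.76 and 5.34 in the deficient pigs, 4.80, 4.83 and 4.76 in the adequate pigs and 5.03, 4.83 and 4.70 in the excess pigs. Deficient pig 3 was the highest. Its deficient minus adequate difference of 0.17 ± 0.16 was -0.02 without that pig.

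In the SLC38 family, SLC38A2 is the sodium-coupled system A carrier whose transcript and protein increase in amino acid starved cultured cells. It had 11.94, 11.93 and 12.61 in the deficient pigs, 12.17, 11.54 and 11.35 in the adequate pigs and 12.38, 11.56 and 11.95 in the excess pigs. Adequate pig 5 lay above deficient pigs 1 and 2, so these diets overlapped. The mean was 12.16 ± 0.39 in deficient and 11.69 ± 0.43 in adequate pigs (SD, n = 3 each), a log2 difference of 0.47 ± 0.30 (SE) that did not pass (limma adjusted p = 1, 95% interval -0.22 to 1.17). This difference was 0.71 without adequate pig 5 and 0.25 without deficient pig 3. The second SLC38A2 probe set gave 0.48 ± 0.28 for the same comparison. Excess minus adequate was 0.28 ± 0.30 and deficient minus excess 0.19 ± 0.30.

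SLC38A7, a lysosomal exporter of glutamine and asparagine, had 5.13, 5.06 and 5.25 in the deficient pigs, 5.25, 5.96 and 5.54 in the adequate pigs and 5.27, 5.25 and 4.76 in the excess pigs. Adequate pig 6 was the highest of the 9 pigs and excess pig 11 the lowest, while adequate pig 5 lay among the deficient and excess pigs. Excess minus adequate was -0.49 ± 0.20 (unadjusted p = 0.042, adjusted p = 0.757 in limma). It was -0.30 without adequate pig 6, -0.32 without excess pig 11 and -0.66 without adequate pig 5. It missed an unadjusted p below 0.05 without moderation, with array SD as a covariate, with array quality weights and with only the 6 arrays compared, and when any one pig other than adequate pig 5 or excess pigs 9 and 10 was left out. Deficient minus adequate, against the same adequate pigs, was -0.44 ± 0.20 (unadjusted p = 0.063, limma adjusted p = 1), and -0.25 without adequate pig 6. Deficient minus excess was 0.05 ± 0.20.

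Fibroblast and matrix markers, and smooth muscle and pericyte markers, were set beside SLC38A7. All 9 measured fibroblast markers lay below the adequate group in deficient pigs, with a median of -0.45, and all 9 in excess pigs, with a median of -0.47, and both comparisons use the same adequate pigs. Their linear values summed to 11371 to 12969 in deficient, 13770 to 17428 in adequate and 9949 to 13100 in excess pigs. All 5 measured smooth muscle markers lay below the adequate group as well, with a median of -0.31 in deficient and -0.50 in excess pigs, and their linear values summed to 2591 to 2913 in deficient, 2955 to 3712 in adequate and 2547 to 3287 in excess pigs. All of these markers had means above the median of all probe sets. Of the 13777 probe sets above it, 7712 lay below 0 in deficient against adequate pigs, with a median of -0.02. In excess against adequate pigs 9874 of the 13777 did, with a median of -0.11. In adequate pigs 5, 6 and 7 the mean log2 value of the fibroblast list was 10.27, 9.83 and 9.82. That of the smooth muscle list was 9.13, 8.86 and 8.77. Pig 5 was thus the highest of its diet for both lists, but the lowest for SLC38A7. The macrophage and leukocyte list was also highest in adequate pigs, at 5.88, against 5.78 in deficient and 5.74 in excess pigs. The part of any of these cell types in the SLC38A7 values was not tested.

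The other measured SLC38 genes differed by less than their SE in deficient against adequate pigs. SLC38A3, a glutamine and histidine carrier, had 8.80, 9.00 and 9.53 in the deficient pigs, 9.26, 9.39 and 9.61 in the adequate pigs and 9.57, 9.44 and 8.35 in the excess pigs. SLC38A9, the lysosomal arginine sensor upstream of the growth kinase mTORC1, lay between 7.55 and 7.84 in 7 pigs, but at 6.67 in deficient pig 1 and 6.11 in excess pig 11. These 2 low values belonged to different diets. Deficient minus adequate was -0.19 ± 0.48 for SLC38A9 (95% interval -1.30 to 0.92), and excess minus adequate -0.46 ± 0.48 (-1.57 to 0.64). Both signs turned when the low pig was left out, to 0.19 without deficient pig 1 and to 0.06 without excess pig 11. SLC38A11, a little studied member, stood at 6.35 in excess pig 11 and between 4.08 and 4.98 in the other 8 pigs. Its excess minus adequate difference was 0.66 ± 0.50, and 0.06 without that pig. SLC38A1, another system A carrier, and SLC38A6 differed by 0.04 and 0.14 in deficient against adequate pigs and by 0.20 and 0.13 in excess against adequate pigs.

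Of the 4 proton-coupled SLC36 genes, SLC36A4 lay above the median of all probe sets, with 5.43, 5.40 and 5.51 in deficient pigs, 5.43, 5.44 and 5.22 in adequate pigs and 5.64, 5.43 and 5.43 in excess pigs. The values overlapped in each comparison and excess minus adequate was 0.14 ± 0.09. SLC36A1, the lysosomal and plasma membrane carrier of the family, differed by -0.18 ± 0.12 in excess against adequate pigs and by -0.004 in deficient against adequate pigs. It had 4.87, 4.81 and 5.01 in the deficient pigs, 4.85, 5.06 and 4.80 in the adequate pigs and 4.91, 4.70 and 4.55 in the excess pigs, and the lowest of these was excess pig 11. SLC36A2 and SLC36A3 differed by -0.11 and 0.03 in deficient against adequate pigs, and by 0.06 and 0.13 in excess against adequate pigs.

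The SLC1 family held the one transporter whose pigs did not overlap between diets. SLC1A5 exchanges glutamine and other neutral amino acids, and is among the genes known to be induced through ATF4. Its values were 7.29, 7.05 and 6.65 in the deficient pigs, 7.03, 6.48 and 6.20 in the adequate pigs and 6.59, 6.28 and 5.81 in the excess pigs. The lowest deficient pig stood 0.056 above the highest excess pig, and the adequate pigs overlapped with both. The mean was 7.00 ± 0.33 in deficient and 6.23 ± 0.39 in excess pigs (SD, n = 3 each), a 1.70-fold difference. On the log2 scale this was 0.77 ± 0.28 (SE, 95% interval 0.12 to 1.42, unadjusted p = 0.0263), and it did not pass over all probe sets (limma adjusted p = 0.872). The difference was 0.56 without excess pig 11 and 0.60 with array SD as a covariate, and neither reached an unadjusted p below 0.05, nor did the difference without deficient pig 1, deficient pig 2 or excess pig 10. Deficient minus adequate was 0.42 ± 0.28 and excess minus adequate -0.34 ± 0.28, both with intervals that include 0.

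Adipocyte markers ran in the same order of diets as SLC1A5, with a mean log2 value over the list of 7.15 in deficient, 6.86 in adequate and 6.55 in excess pigs. In deficient against excess pigs 7 of the 8 measured were higher, with a median of 0.63, against 50.0% of all probe sets. For 5 of these 7 the pigs did not overlap, against 6.47% of all probe sets in either direction. Linear values of the 8 markers summed to 2523 to 3147 in deficient, 2422 to 3140 in adequate and 1903 to 2502 in excess pigs. The means of the 8 markers ran from 4.41 for leptin, LEP, to 10.74 for LPL, and that of perilipin 1, PLIN1, was 5.79. All but LEP, 7 of the 8, were above the median of all probe sets. Of the 13777 probe sets above it, 8979 were higher in deficient than in excess pigs, and 8.29% did not overlap there. The amino acid response genes described below ran in the same order of diets, with means over the list of 7.93, 7.46 and 7.25. So did endothelial markers, with 6.46, 6.41 and 6.36, but not the other cell type lists. Within the deficient diet the adipocyte mean was 7.08, 7.08 and 7.29 in pigs 1, 2 and 3. SLC1A5 was lowest in pig 3 of these, at 6.65, and highest in pig 1, at 7.29. The part of adipocytes in the SLC1A5 values was not tested.

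SLC1A4, a relative that exchanges alanine, serine and cysteine, had 6.72, 6.81 and 7.33 in the deficient pigs, 7.20, 6.51 and 6.58 in the adequate pigs and 6.70, 7.10 and 5.37 in the excess pigs. Excess pig 11 stood more than 1 log2 unit below every other pig. Deficient minus excess was 0.56 ± 0.44 with all pigs and 0.05 without that pig, and excess minus adequate was -0.38 with all pigs and 0.13 without it. Deficient minus adequate was 0.19 ± 0.44. The difference itself does not use that pig's value, but its SE does, because the spread was taken over all 3 diets. Of the glutamate carriers, SLC1A3, a glial type found in many tissues, had 7.17 to 7.64 in deficient, 7.21 to 7.40 in adequate and 7.28 to 7.83 in excess pigs. Deficient minus adequate was 0.12 ± 0.17 and excess minus adequate 0.23 ± 0.17. The glutamate carriers SLC1A1, SLC1A2, SLC1A6 and SLC1A7 had means under the median probe set and differed by at most 0.09 in either direction in deficient against adequate pigs. SLC1A1 had 4.46, 4.65 and 4.38 in the deficient pigs, 4.35, 4.35 and 4.54 in the adequate pigs and 4.30, 4.61 and 5.22 in the excess pigs. It differed by 0.30 ± 0.22 in excess against adequate pigs, and by 0.04 without excess pig 11, the highest of the 9. SLC1A2 had 4.26, 4.20 and 4.16 in the deficient pigs, 4.12, 4.20 and 4.03 in the adequate pigs and 4.17, 4.20 and 4.37 in the excess pigs, overlapping in every comparison.

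The diet means of the 9 measured SLC6 genes lay close together. They were the noradrenaline transporter SLC6A2, the serotonin transporter SLC6A4, the glycine and proline carriers SLC6A5 and SLC6A7, the betaine carrier SLC6A12, and SLC6A15, SLC6A17, SLC6A18 and SLC6A19, carriers of neutral amino acids in brain, kidney or intestine. Deficient minus adequate ranged from -0.05 to 0.12, excess minus adequate from -0.03 to 0.23 and deficient minus excess from -0.25 to 0.03. Single pigs spread more widely, and SLC6A4 ranged over 0.82, with its highest value, 4.77, in excess pig 9 and its lowest, 3.95, in excess pig 10. SLC6A2 and SLC6A19 alone had means above the median of all probe sets, 5.26 and 5.18. SLC6A18, which had the smallest unadjusted p of the family (0.071, excess against adequate), had 4.07, 4.28 and 4.22 in excess pigs and 4.07, 4.04 and 4.01 in adequate pigs, a log2 difference of 0.15 ± 0.07 at a level of 4.11. SLC6A15 had 4.26, 4.39 and 4.11 in the deficient pigs, 4.18, 4.09 and 4.52 in the adequate pigs and 4.19, 4.41 and 4.89 in the excess pigs, with excess pig 11 the highest. Its excess minus adequate difference was 0.23 ± 0.19, and 0.04 without that pig.

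Over all 35 genes the median log2 difference was 0.04 in deficient against adequate pigs, with 21 genes above 0 and 14 below. Over all probe sets the median was 0.007 and 52.9% were above 0. In excess against adequate pigs 24 genes were above 0 and 11 below (median 0.06), and in deficient against excess pigs 14 were above 0 and 21 below (median -0.04), where 50.2% and 50.0% of all probe sets were above 0. These 2 splits moved with the processing. In excess against adequate pigs 17 genes were above 0 after quantile normalization was applied again, 19 after median centring, 16 with array SD as a covariate and 22 without excess pig 11. In deficient against excess pigs the counts were 18, 19, 17 and 18.

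Excess pig 11 held the highest value of the 9 pigs for 12 of the 35 genes and the lowest for 9. Against the mean of excess pigs 9 and 10 it was lower for 11 of the 14 genes above the median level, by a median of 0.41 (a difference of -0.41), and higher for 15 of the 21 genes at or below it, by a median of 0.18. Of all probe sets above the median level 75% were lower in that pig, against 78.6% of the transporters there. Of the 13781 probe sets at or below it 9241 were higher. The median differences of all probe sets were -0.28 above the median level and 0.10 at or below it. The largest differences of transporters were 1.82 for SLC38A11, -1.58 for SLC38A9, -1.53 for SLC1A4 and -1.16 for SLC38A3.

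**Figure D3:**
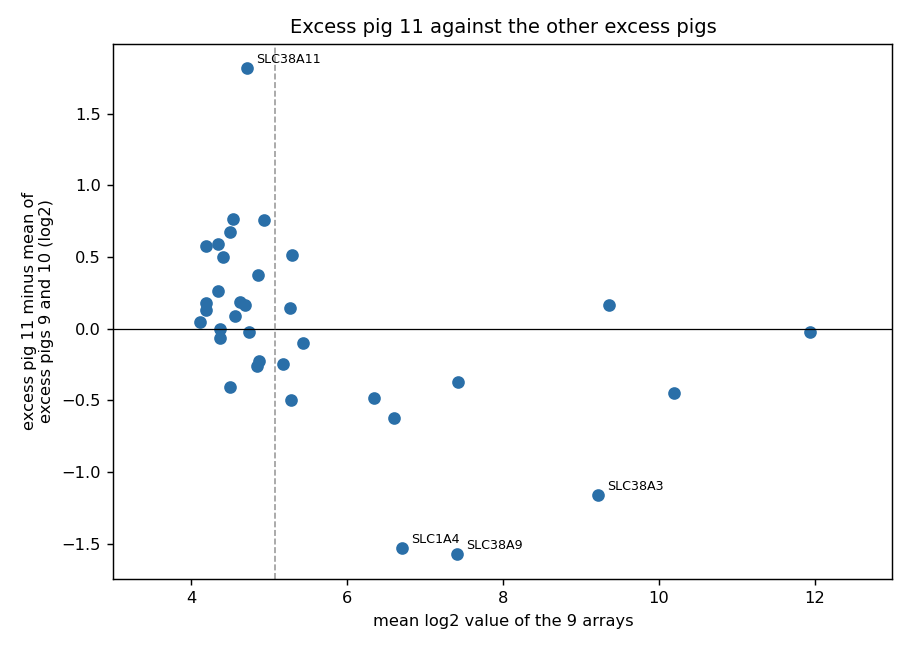
Difference of excess pig 11 from the mean of excess pigs 9 and 10 (log2, vertical axis) against the mean log2 value of the 9 arrays, for the 35 transporter genes; the dashed line is the median of all probe sets, 5.07. Genes left of the line lay mostly above 0 and genes right of it mostly below.

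**Figure D4:**
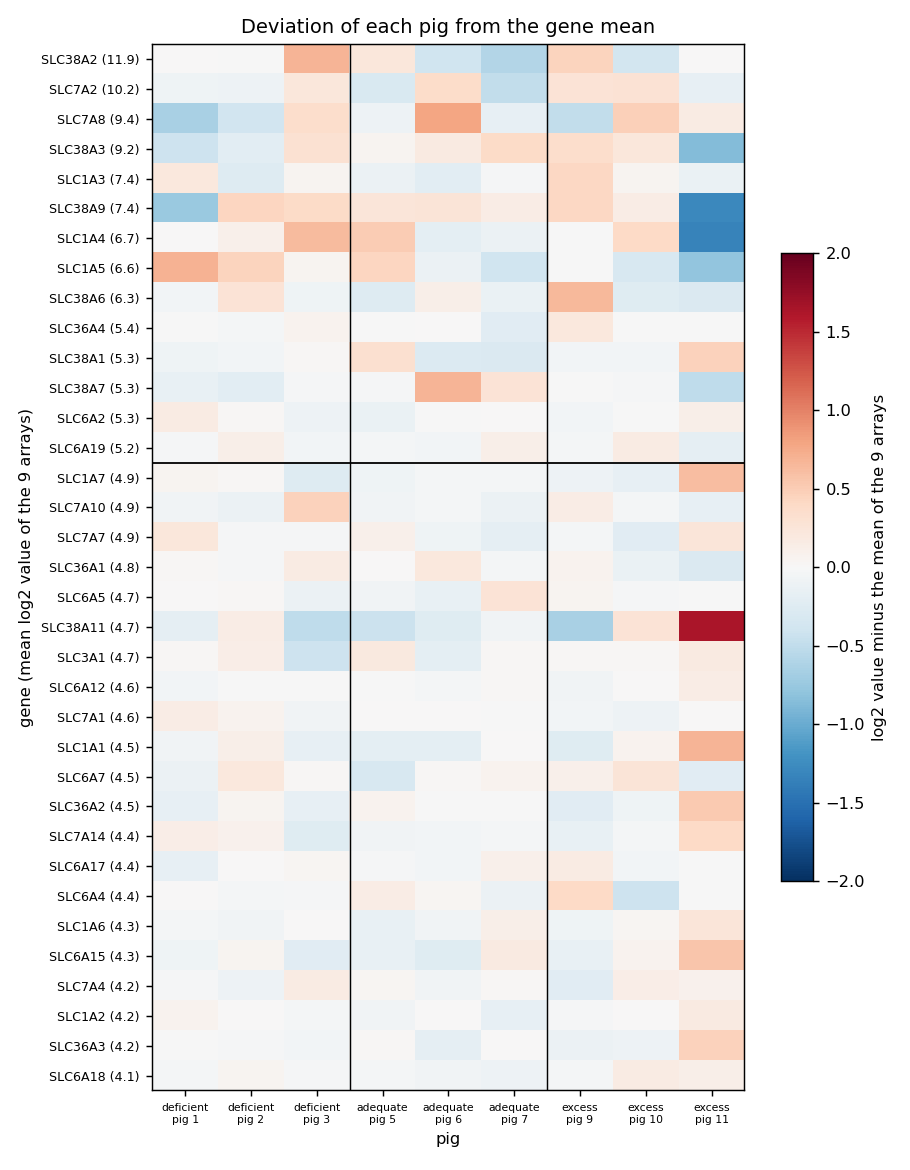
Deviation of each pig (columns, by dietary lysine) from the mean of the 9 arrays for each transporter gene (rows, brightest at the top, mean in brackets); red is above and blue below the mean, and the horizontal line divides the 14 genes above the median of all probe sets from the other 21. The strongest colours are in the column of excess pig 11, where SLC38A11 had its value of 6.35.

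Other genes of amino acid supply were set beside the transporters from lists. These lists were chosen with earlier results of these data known, so the counts below only describe them. Of 17 measured genes of the amino acid response, 5 reached an unadjusted p below 0.05 in deficient against adequate pigs, all higher, against 1.85% of all probe sets in either direction, and 0 passed the adjusted threshold (smallest limma adjusted p = 0.145). They were the serine synthesis enzymes PHGDH, PSAT1 and PSPH, the transcription factor ATF5 and asparagine synthetase, ASNS. The differences of the list ran from -1.26 to 2.28 with a median of 0.27, while those of the 35 transporters ran from -0.44 to 0.47. ATF4 itself differed by 0.05. In deficient against excess pigs 6 of the 17 reached an unadjusted p below 0.05, all higher, against 4.08% of all probe sets. Of the 11 measured carriers of amino acids and peptides in other families, 0 reached an unadjusted p below 0.05 in any comparison. The share of all probe sets in excess against adequate pigs was 3.56%, and the other 2 shares are given above. SLC16A10, a carrier of aromatic amino acids known from muscle, had a mean of 9.98 and differed by -0.13 in deficient and by -0.20 in excess against adequate pigs, and SLC25A29, a mitochondrial carrier of basic amino acids, by 0.10 and 0.14.

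**Figure D5:**
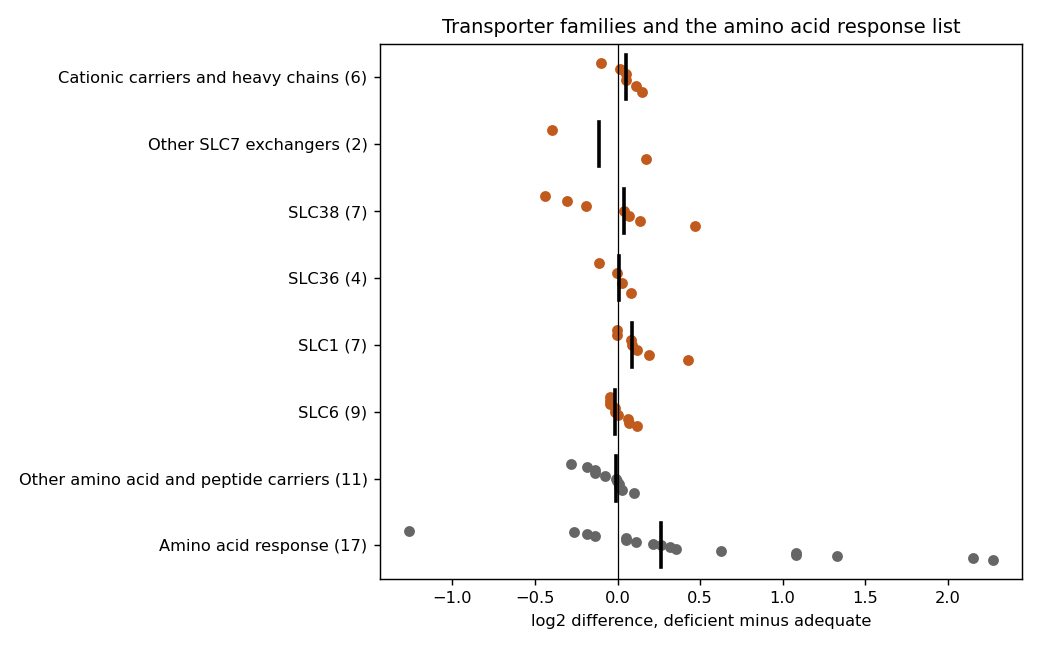
Log2 difference of deficient minus adequate pigs for each gene (points) in the transporter families (orange), in other amino acid and peptide carriers and in the amino acid response list (grey), with the median as a bar and the number of genes in brackets. The transporters lie between -0.44 and 0.47, and the amino acid response genes between -1.26 and 2.28.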

How the data were processed

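Expression was measured in longissimus dorsi RNA of 9 pigs with whole-transcript GeneChip arrays. The deposited log2 values are the authors' processed values. Per the submitters' processing notes GCOS 1.2 and Partek were used, in roles not stated. The sources used here give no background correction, summarization, normalization or log base, so log2 is inferred from the range. The values were used without further normalization. Symbols written more than once for a probe set counted as 1. All 27558 probe sets and 9 arrays entered one limma model (version 3.58.1, R 4.3.3, lmFit and eBayes) with a mean for each diet, two-sided tests and Benjamini-Hochberg adjustment over all probe sets, at a threshold of 0.05. The fit was tested on simulated data. Intervals are 95% intervals of this model. Replicates are separate pigs, and 3 arrays per diet limit the precision. Named with values in every pig are the lysine carriers, SLC38A2, SLC7A8 and, per comparison, the 6 genes of smallest unadjusted p. SLC6A18 is given without its deficient pigs. SLC38A3, SLC38A9, SLC38A11 and SLC1A3 were added after their values were seen, all but SLC38A3 wholly or partly as ranges. The genes and lists were chosen with earlier results of these data known. Alternatives were other normalizations, array weights, covariates, filters and leaving out each pig. No file gave sequences of these genes.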

Additional observations from a re-analysis of the deposited data

How the results depend on the processing

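No transporter gene passed the adjusted threshold in any comparison under any alternative run. No paired analysis was possible because the pigs of the diets share no numbers. Array quality weights called 1 probe set in deficient against adequate pigs and 1 for any diet, a test without moderation called 1 each in excess against adequate, deficient against excess and any diet, and probe sets with 1 symbol alone gave 1 in deficient against excess pigs. Transporters at an unadjusted p below 0.05 numbered 1 in excess against adequate pigs, but 2 after quantile normalization was applied again (with SLC1A3) or with an intensity trend (with SLC6A18), and 0 with only the 6 arrays compared or with array quality weights. The 1 gene was SLC38A7, but SLC6A18 without moderation and SLC36A4 with array SD as a covariate. In deficient against excess pigs there was 1, but 2 after quantile normalization was applied again (with SLC7A1), and 0 with the weights or with array SD as a covariate. In deficient against adequate pigs there were 0, but 1 with the weights and 1 with the covariate, SLC38A7 both times. Leaving out 1 pig gave 0 to 3 between deficient and adequate pigs (SLC1A5, SLC38A2 and SLC38A7 without adequate pig 5). It gave 0 to 5 between excess and adequate pigs (SLC1A1, SLC36A1, SLC38A7, SLC38A11 and SLC6A18 without excess pig 9) and 0 to 3 between deficient and excess pigs (SLC1A5, SLC36A1 and SLC38A11 without excess pig 9). The iteration for the array weights stopped before its tolerance was reached.

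Signs of some differences turned, for causes that were not tested. The largest to turn between excess and adequate pigs were those of SLC38A11 (0.66 with all arrays), SLC38A9 (-0.46) and SLC1A4 (-0.38). Between excess and adequate pigs, quantile normalization gave -0.019 for SLC7A10 and -0.018 for SLC7A7, median centring gave -0.001 and -0.006, and the covariate gave -0.027 for SLC1A1, 0.18 for SLC1A4, 0.158 for SLC38A3, 0.179 for SLC38A9, -0.108 for SLC38A11, -0.041 for SLC6A15 and -0.062 for SLC7A7. In deficient against excess pigs SLC1A2 was 0.005 after quantile normalization, 0.010 after median centring and 0.009 with the covariate, which gave 0.046 for SLC1A1, -0.242 for SLC38A9, 0.024 for SLC38A11, -0.10 for SLC38A7 and -0.021 for SLC7A10. Median centring gave 0.042 for SLC38A3 there. The weights gave 0.000 for SLC1A1, -0.098 for SLC38A2, -0.045 for SLC38A7 and -0.050 for SLC7A10 there. In deficient against adequate pigs the weights gave 0.047 for SLC6A15 and the covariate 0.024 for SLC36A1 and -0.083 for SLC38A11. Leaving out 1 pig in deficient against adequate pigs moved SLC1A4 from -0.003 to 0.41, SLC36A1 from -0.060 to 0.074, SLC6A15 from -0.099 to 0.11, SLC7A1 from -0.002 to 0.11, SLC7A10 from -0.016 to 0.28, SLC38A9 from -0.394 to 0.194, SLC38A11 from -0.092 to 0.234 and SLC7A2 from -0.026 to 0.40. In excess against adequate pigs the ranges were -0.73 to 0.13 for SLC1A4, -0.526 to 0.087 for SLC38A3, -0.793 to 0.063 for SLC38A9, -0.031 to 0.13 for SLC7A10, -0.074 to 0.16 for SLC7A7 and -0.33 to 0.19 for SLC7A8. In deficient against excess pigs they were -0.42 to 0.044 for SLC1A1, -0.079 to 0.020 for SLC1A2, -0.229 to 0.046 for SLC1A3, -0.396 to 0.216 for SLC38A3, -0.253 to 0.656 for SLC38A9, -1.124 to 0.012 for SLC38A11, -0.091 to 0.014 for SLC36A4, -0.032 to 0.40 for SLC38A2, -0.11 to 0.14 for SLC38A7, -0.071 to 0.22 for SLC7A10 and -0.045 to 0.19 for SLC7A7. SLC1A5 was above 0 in deficient against excess pigs under every alternative run (0.56 to 0.95).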
